A study of Mus musculus with 16 samples.

Results

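The 8 libraries labelled as control CRISPR, of 16 libraries in the series, were described for how their liver messenger RNA differed from one liver to the next. They were chosen by their column names alone, and no value of the other 8 libraries entered any step. The labels give the control livers the genotype Ctrl and a Western diet for 8 weeks; they give neither the target of the control guide nor the delivery of CRISPR, and no age, sex, strain, litter or batch of the mice. Whether every library came from its own animal is not stated in the labels, so each p-value reflects only how these samples differ, which may be technical. Each liver is called by the number in its label, from Control 7 to Control 38. The labels do not say whether these numbers follow an order.

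The liver secretes most plasma proteins, makes and exports lipid, and turns sterols into bile acids, and most of its RNA comes from hepatocytes. A Western diet is rich in fat and cholesterol and is known to load hepatocytes with lipid droplets. As fat accumulates, macrophages that take up lipid and stellate cells that deposit collagen are known to increase, while male mouse livers express major urinary proteins under pulses of growth hormone.

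Recovered reads, the whole reads that the deposited normalized counts are multiples of, summed to 13.8 M in Control 38 and to 25.4 M in Control 7, with 21.02 ± 3.48 M (SD, n = 8; M, mega). Albumin and the other 11 hepatocyte markers were present in every liver, and their summed normalized counts lay between 1720832 in Control 13 and 2490667 in Control 20. The Y-linked genes Ddx3y, Uty, Kdm5d and Eif2s3y were read in all 8 livers, with Ddx3y from 324 (Control 20) to 452 (Control 12) normalized counts. Of 8 neutrophil markers 1 was in the table and of 14 lymphocyte markers 7, so those cell types could be followed only in part. Control 20 stood apart from the rest on the first principal component. Many results that rest on it, though not all, are also given without it.

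Albumin, the main plasma protein, took 6.67% of all normalized counts on average and Scd1, the desaturase that makes monounsaturated fatty acids, 2.88%. Together the leading 10 genes held 18.1% to 20.7% of a library, and the leading 25 held 27.3% on average. Per kilobase of exon, Alb stood at 589548 normalized counts, followed by Apoe, a lipoprotein ligand, at 228790.0, mt-Cytb of the respiratory chain at 213198, the noncoding RNA Gm42418 at 191407, Fabp1, the liver fatty acid binding protein, at 171863 and Apoa2 and Apoa1 of high density lipoprotein at 170298 and 139389. The remaining genes of the 25 include the complement protein C3, the selenium carrier Sepp1 and the xenobiotic and ethanol enzyme Cyp2e1.

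The SD of log2(normalized count + 1), the measure of spread used throughout, had a median of 0.209 over the 25, against 0.147 over the 9600 genes with a mean of at least 100. It was 0.09 for Fabp1, 0.10 for Sepp1 and 0.19 for Alb. Mup3, a major urinary protein, had an SD of 0.64 and ran from 41967 in Control 7 to 146544 in Control 20 (median 90382). Serpina3k, a plasma protease inhibitor, lay between 93951 in Control 7 and 219075. Gm42418 had the largest SD of the 25, 1.12, and 0.13 without Control 13, where it stood at 44495 against 326390.4 or more elsewhere.

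**Figure D1:**
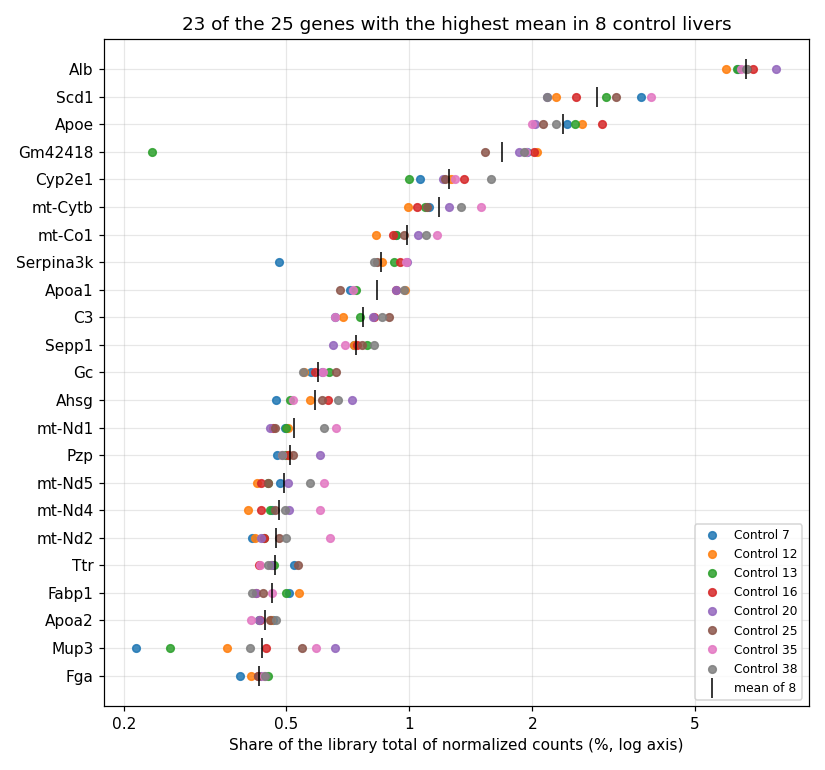
Share of each library's normalized counts (percent, log axis) taken by 23 of the 25 genes with the highest mean, with 1 point per control liver and a bar at the mean of 8. Gm42418 is low in Control 13 and Mup3 spreads from Control 7 to Control 20.

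Over the 9600 genes with a mean of at least 100 normalized counts, the median SD was 0.147, with quartiles of 0.107 and 0.211. Counting reads alone would give a median of 0.065, and the SD of a gene was at the median 2.23 times its own counting value. An SD of at least 0.5 was found for 294 genes, and 40 genes (0.417%) had an SD of at least 1, which is a typical deviation of 2-fold. Of these 40, Gm15564 was the last inside at 1.03, while Mt1 at 0.994 and Phlda1 at 0.99 lay just outside. Without Control 20, 25 genes reached an SD of 1. The mean of 9 of the 40 reached 100 only through their highest liver. These were Cyp2b9, Ly6d, Sqle, Mmp12 and Cd63 with Control 7, and Marco with Control 13, Mup1 with Control 20, Ugt2b38 with Control 12 and Gm1821 with Control 25. Such genes had to vary to be listed, so counts and medians over the 40 describe the listed genes and support nothing further.

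The planned test of whether a gene varied more than is usual for its level, limma's variance against a trended prior, called 0 of 12618 genes at an adjusted p under 0.05 (0%), and 849 had an unadjusted p under 0.05. The smallest adjusted p was 0.168. On simulated data limma called 0% of genes given 4 times the usual spread, so its 0 here cannot be read as a lack of variable genes. The edgeR goodness of fit test on recovered reads called 682 genes (5.40%), and 520 of the 9600 genes with a mean of at least 100 (5.42%). It is an alternative and not the planned test, and its counts below are read against 5.40%. On simulated data it also called 3.80% of genes given no set increase. The spread of these genes was drawn at random around the usual value. Some of them exceeded it, so 3.80% is not a rate of false calls. All 40 of the most variable genes are among the edgeR calls, a description only, since they were chosen on the same spread. Lists that hold some of the 40 gain calls from them.

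**Figure D2:**
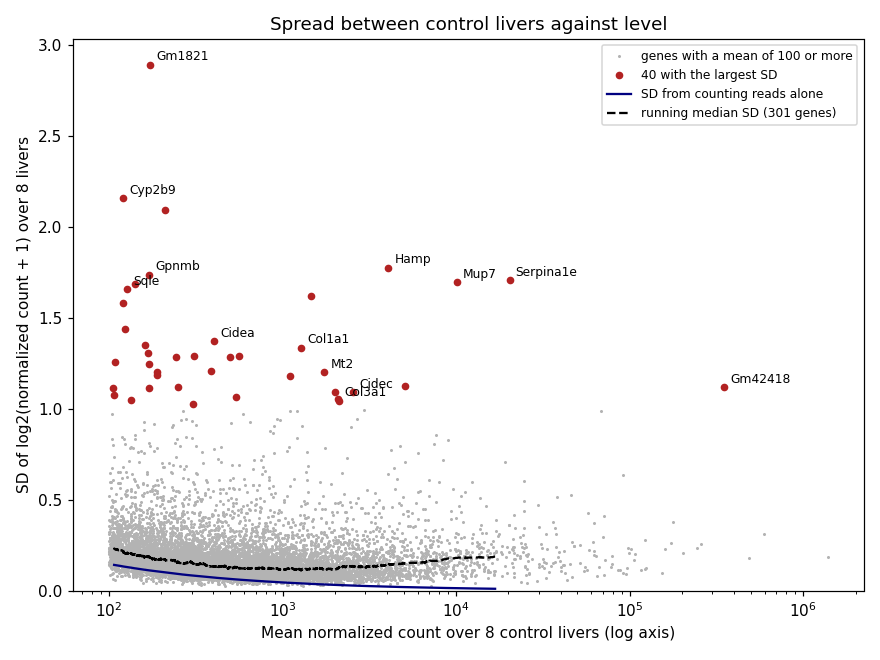
SD of log2(normalized count + 1) over 8 control livers against the mean normalized count (log axis), with 1 grey point per gene, the 40 most variable genes in red, the running median dashed and the SD expected from counting reads as a solid line. The red points lie at an SD of 1.03 or more, while the running median of all genes lies far below them.

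The 40 genes fell mostly into 2 blocks that moved in opposite directions over the livers. One block of 17 genes, with macrophage, collagen and lipid droplet genes, was high in Control 7 and 13 and low in Control 20. The other block of 12 genes, with hepcidin, major urinary protein and other hepatocyte genes, was high in Control 20 and low in Control 7 and 13. Blocks were formed by average linkage on 1 minus r, with a limit of 0.5 chosen after the values were seen. The median Pearson r was 0.91 within the first block, 0.79 within the second and -0.76 between them. Over all pairs of genes it was 0.0042. Since the blocks were formed on r itself, high medians within them follow from the grouping and are a description only.

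Of the 780 pairs among the 40 genes, 177 (22.7%) passed the two-sided exact permutation test of r over all pairings of the 8 livers after Benjamini-Hochberg adjustment, 112 with r above 0 and 65 below, and they involved 31 of the 40 genes. Of the 177, 73 hold a gene whose mean reached 100 only through its highest liver and 104 hold none. By Spearman's rho 115 passed. Without the 2 livers farthest from the median of a pair's first gene, 143 of the 177 kept an r of at least 0.7 in size in the same direction and 1 reversed. Without Control 20, 0 pairs passed when the 40 genes were chosen again and 8 passed with the same 40 genes kept, where 189 of the 780 pairs had an unadjusted p under 0.05. All 177 kept their sign with that liver left out, 157 of them had an unadjusted p under 0.05, and their median r in size went from 0.908 to 0.865. Without Control 7 the count was 60 and without Control 13 it was 63, each with the genes chosen again.

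**Figure D3:**
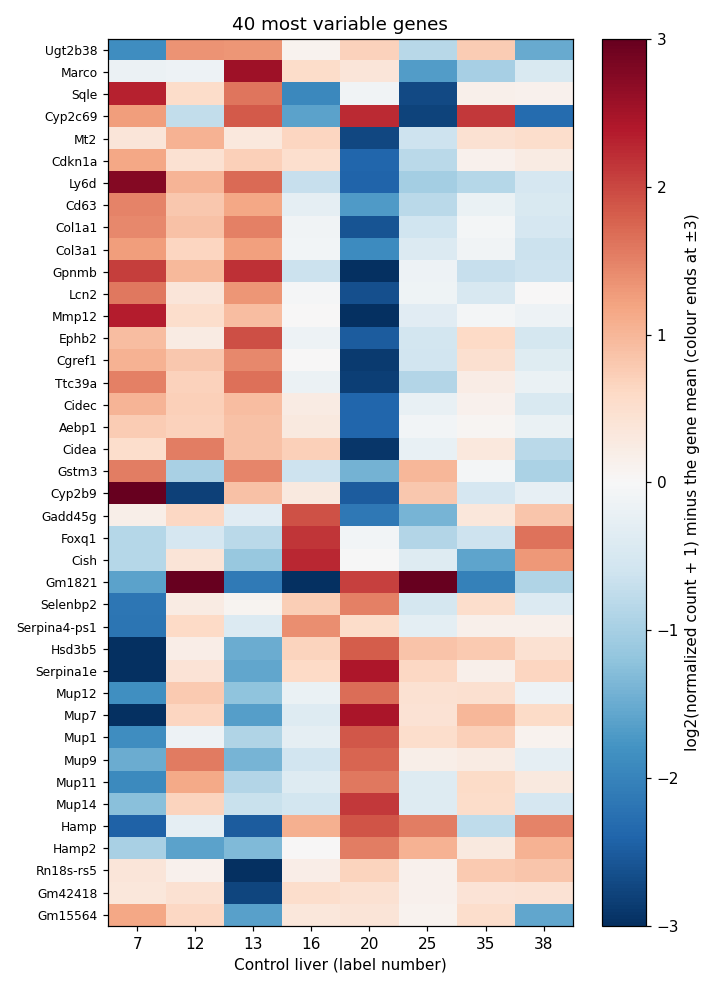
Each row is 1 of the 40 most variable genes and each column a control liver, with colour for log2(normalized count + 1) minus the gene's mean. Most rows from Mt2 to Cyp2b9 are high in Control 7 and 13 and low in Control 20, and most rows from Selenbp2 to Hamp2 show the opposite.

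**Figure D4:**
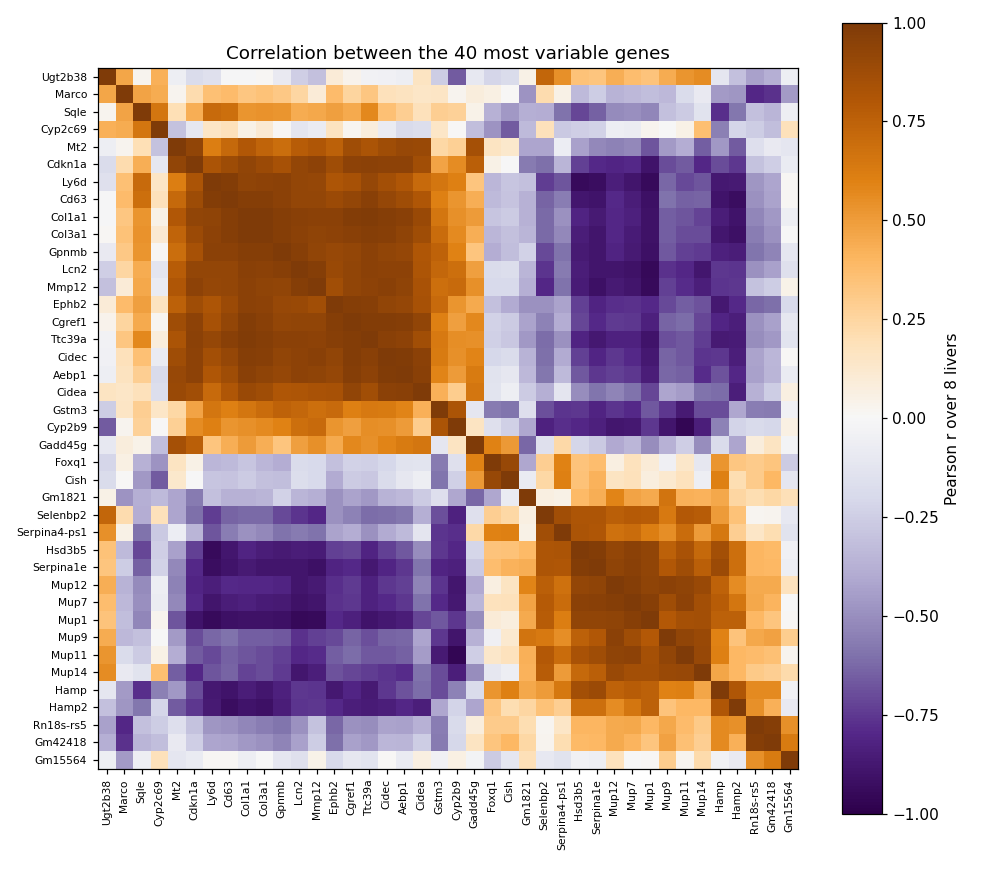
Pearson r over 8 control livers for every pair of the 40 most variable genes, in the same order on both axes. The first block has a median r of 0.91, the second 0.79, and the pairs between them -0.76, with the blocks formed on r itself.

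The first principal component of the 9600 genes held 46.9% of the variance and ordered the livers the same way. Its genes with the largest loadings were Gpnmb, Ly6d and Mmp12 at the end of Control 7 and Hamp, Serpina1e and Mup7 at the other. These are themselves genes of the blocks, chosen for their spread. The shared order is therefore a description and not a separate test of the blocks. Control 7 scored -21.1, Control 13 -17.6 and Control 12 -7.15, while Control 16, 35 and 38 scored 1.62, 2.16 and 4.25, Control 25 scored 10.2 and Control 20 scored 27.6. The second component held 14.8%, and its genes with the largest loadings were Cish, Foxq1 and Gadd45g at one end and Cyp2c69 at the other.

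Lists of genes by pathway and cell type were also tested, each through 1 reference gene paired with its other members, and 47 of 353 such pairs (13.3%) passed the exact permutation test, 26 by Spearman's rho, and 23 without Control 20. All 47 kept their sign without that liver. Of 33 lists with a median, 31 had a median r above that of all gene pairs, and 23 after scaling to equal totals, which raised the median of all pairs to 0.156. Medians of a list are over its members with a mean of at least 100.

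Genes of lipid-laden macrophages were among the most variable. Gpnmb, a membrane glycoprotein of macrophages that have taken up lipid (ENSMUSG00000029816, chromosome 6, 49036546 to 49070929, plus strand on mm10), stood at 421 in Control 7, 195 in Control 12, 456 in Control 13, 63.4 in Control 16, 10.5 in Control 20, 88.9 in Control 25, 60.9 in Control 35 and 64.5 in Control 38 normalized counts, an SD of 1.74. Control 7 and 13 lay far above the other livers and Control 20 far below them. Without Control 20 the SD of Gpnmb was 1.29. Mmp12, a macrophage elastase with a mean of 121, or 80.1 without Control 7, ran from 7.32 in Control 20 to 408 in Control 7 (median 77.9), with an SD of 1.58, or 0.94 without Control 20. Cd63, a lysosomal tetraspanin, ran from 25.1 in Control 20 to 237 in Control 7 (median 71.7). Of the list of recruited and lipid-associated macrophage markers, 11 of 15 members in the table passed the edgeR test, its median SD was 0.59 against 0.147 for all genes, and its median r was 0.84. In bulk tissue, fewer cells of a type and less RNA per cell cannot be told apart.

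Resident Kupffer cell markers had smaller SDs. Of that list 3 of 13 members passed, with a median SD of 0.28, and the summed markers lay between 11436 in Control 35 and 18437 in Control 13. Marco, a scavenger receptor, stood at 668 in Control 13 and between 35.4 and 167 in the other 7. Its SD was 1.25 and 0.76 without Control 13, and its mean of 170.2 rests largely on that liver. Adgre1, the F4/80 antigen, was also highest in Control 13, at 1047.

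Collagen genes followed the same order. Col1a1, a chain of type I collagen (ENSMUSG00000001506, chromosome 11, 94936224 to 94953042, plus strand), stood at 2574 in Control 7, 1738 in Control 12, 2678 in Control 13, 873 in Control 16, 155 in Control 20, 626 in Control 25, 905 in Control 35 and 665 in Control 38, an SD of 1.34. Control 13 and 7 were the highest, Control 12 came next, and Control 20 was the lowest by a wide margin. Without Control 20 the SD of Col1a1 was 0.90. Col3a1, of type III collagen, ran from 464 in Control 20 to 4059 in Control 7 (median 1614). The pair gave r = 0.99, exact permutation p = 0.000198, adjusted p = 0.00595, Spearman rho = 0.93 with p = 0.00223, and r = 0.99 without Control 13 and 20. Of the stellate cell and fibrosis list, 11 of 17 members passed the edgeR test, with a median SD of 0.48 and a median r of 0.90. Aebp1, a protein of collagen assembly, ran from 20.9 in Control 20 to 211 in Control 13 (median 129), with an SD of 1.05 and 0.44 without Control 20.

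Lipid droplet genes belonged to the same block. Cidec, which drives fusion of lipid droplets, stood at 4328 in Control 7, 3459 in Control 12, 4015 in Control 13, 2523 in Control 16, 410.0 in Control 20, 1833 in Control 25, 2331 in Control 35 and 1551 in Control 38. Control 20 lay below every other liver, and without it the SD fell from 1.09 to 0.57. Cidea, a related droplet protein whose annotated start overlaps the antisense transcript B430212C06Rik, ran from 39.7 in Control 20 to 884 in Control 12 (median 411), and its SD was 1.37, or 0.76 without Control 20. Plin4, a droplet coat protein, ran from 624 in Control 20 to 4108 in Control 12 (median 2413). Plin2, the coat protein that marks fat loading, was paired with the other members: with Plin3 it gave r = 0.93, exact permutation p = 2.48e-05, adjusted p = 0.00292, Spearman rho = 1 with p = 4.96e-05, and r = 0.95 without Control 7 and 20. A p of 2.48e-05 is the smallest that pairings of 8 livers can give. With Cidec it gave r = 0.92, exact permutation p = 4.96e-05, adjusted p = 0.0035, Spearman rho = 0.98 with p = 0.000397, and r = 0.98 without Control 7 and 20. With Slc27a5, a bile acid and fatty acid CoA ligase, r was of the opposite sign (r = -0.97, exact permutation p = 0.000124, adjusted p = 0.00398, Spearman rho = -0.95 with p = 0.00114). Of this list 7 of 20 members passed the edgeR test. Among them are Cidea and Cidec, which belong to the 40 genes chosen for spread.

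The other members of this block have varied roles. Lcn2, an iron-siderophore binding acute phase protein, ran from 66.9 in Control 20 to 1276 in Control 7 (median 423), and its SD of 1.29 was 0.78 without Control 20. Cdkn1a, the p21 inhibitor of cell division, ran from 38.7 in Control 20 to 465 in Control 7 (median 266), with an SD of 1.12 and 0.61 without Control 20. Mt2, a metallothionein that binds zinc, stood at 213 in Control 20 and at 922 or more elsewhere, with an SD of 1.20 and 0.51 without that liver. Ly6d, Ttc39a, Cgref1 and Ephb2, the last an ephrin receptor, were highest in Control 7 or 13 and lowest in Control 20. Without Control 20 the SD of Ttc39a was 0.94, that of Cgref1 0.75 and that of Ephb2 0.89. Gstm3, a glutathione transferase, ran from 312 in Control 20 to 2406 in Control 7 (median 671). Cyp2b9, a cytochrome P450 usually higher in female livers, stood at 694 in Control 7 and between 4.88 and 75.2 in the others. It has close paralogs, so its reads may be shared with them, and its mean of 120.3 passed the limit of 100 through Control 7.

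Of the hepatocyte markers 1 of 12 passed the edgeR test, with a median SD of 0.21 and a median r of 0.33. Their sum, most of which is Alb (1244431 in Control 7, 1198684 in Control 13 and 1760185 in Control 20), stood at 1787893 in Control 7 and 1720832 in Control 13 against 2490667 in Control 20, and in the other livers between 1815954 and 2121944. Its part in the block was not tested.

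Hepcidin led the opposite block. Hamp, the liver hormone that limits iron export (ENSMUSG00000050440, chromosome 7, 30942368 to 30944032, minus strand), stood at 455 in Control 7, 2040.4 in Control 12, 436 in Control 13, 5113 in Control 16, 9050.3 in Control 20, 7184 in Control 25, 1441 in Control 35 and 6908 in Control 38, an SD of 1.78. Control 7 and 13 were the lowest and Control 20, 25, 38 and 16 the highest. Its near-identical copy Hamp2 ran from 46.8 in Control 12 to 422 in Control 20 (median 162), and reads may be exchanged between them. The pair gave r = 0.81, exact permutation p = 0.024, adjusted p = 0.0844, Spearman rho = 0.79 with p = 0.0279, and r = 0.71 without Control 7 and 13, and did not pass. Their start regions are shown with that of Cish, a cytokine signal inhibitor of another block, because each holds the letters TTCNNNGAA, which STAT factors are known to bind. The stretches run from 120 bases before to 30 after the RefSeq start on GRCm38.p6, with matches on either strand in capitals. Hamp lies at chr7:30944000-30944149, minus strand, Hamp2 at chr7:30924152-30924301, minus strand and Cish at chr9:107296539-107296688, plus strand.
Hamp: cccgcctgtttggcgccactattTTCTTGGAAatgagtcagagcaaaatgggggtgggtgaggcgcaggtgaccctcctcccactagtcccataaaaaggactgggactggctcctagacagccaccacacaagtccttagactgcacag
Hamp2: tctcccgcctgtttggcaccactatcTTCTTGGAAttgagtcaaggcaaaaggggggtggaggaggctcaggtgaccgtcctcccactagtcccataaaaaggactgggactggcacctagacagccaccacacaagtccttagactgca
Cish: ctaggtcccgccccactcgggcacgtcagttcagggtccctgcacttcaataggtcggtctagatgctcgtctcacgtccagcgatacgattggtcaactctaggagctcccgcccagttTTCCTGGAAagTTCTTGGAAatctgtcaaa
Aligned with a shift of 3 bases, Hamp and Hamp2 had the same letter at 136 of 147 bases (92.5%). These genes were chosen for printing after the matches were seen. The 250 bases before the start were searched first, and there 2 of 30 genes with a window held the letters, Hamp and Hamp2 (6.67%), against 7.02% of 32851 promoters and 6.08% of those of genes in the table, and Cish held none. The window was then widened to include the 50 bases after the start, where the 2 Cish matches lie, which gave 3 of 30 genes against 8.30% and 6.99%. Both shares are near the background, which counts windows, while a gene with several windows was counted once. Letters of the metal response element occurred at least 2 times in 3 of the 30 genes in the first window, against 5.17% of promoters and 8.09% of those of genes in the table. In the wider one it was 5 of 30, against 7.11% and 11.1%. A match is a description of the letters only.

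Major urinary proteins and other genes known to depend on growth hormone made up most of the block. Mup7 (ENSMUSG00000073842, chromosome 4, 60066469 to 60070475, minus strand) stood at 743 in Control 7, 9738 in Control 12, 1984 in Control 13, 4715 in Control 16, 33719 in Control 20, 8444 in Control 25, 12384 in Control 35 and 9300.5 in Control 38, an SD of 1.70, with Control 7 lowest, Control 13 next and Control 20 highest. Mup1, Mup9, Mup11, Mup12 and Mup14 had SDs of 1.12, 1.21, 1.13, 1.12 and 1.07, and Mup14 fell to 0.69 without Control 20. Mup genes are near-identical, and how reads were split among them is uncertain. Serpina1e, an alpha-1 antitrypsin copy in another family of close paralogs, stood at 1311 in Control 7, 16876 in Control 12, 4270.0 in Control 13, 19064 in Control 16, 67944 in Control 20, 19488 in Control 25, 14029 in Control 35 and 19694 in Control 38. Hsd3b5, a steroid dehydrogenase typical of male mouse liver, ran from 102 in Control 7 to 3573 in Control 20 (median 1489), and its SD was 1.62 or 1.002 without Control 7. The pair Serpina1e and Hsd3b5 gave r = 0.98, exact permutation p = 0.00159, adjusted p = 0.0142, Spearman rho = 0.76 with p = 0.0368, and r = 0.87 without Control 7 and 13.

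Of the list of major urinary proteins and sex-biased liver genes, 23 of 29 members in the table passed the edgeR test, with a median SD of 0.85 and a median r of 0.71. Its members include 10 of the most variable genes, which were chosen for spread in these same livers and are all edgeR calls. The count and medians of this list are therefore a description and not separate evidence for the block. Selenbp2, a selenium binding protein, ran from 364 in Control 7 to 4676 in Control 20 (median 1821), with an SD of 1.09 and 0.70 without Control 7. For the pseudogene Serpina4-ps1 the SD was 1.05, and 0.61 without that liver.

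**Figure D5:**
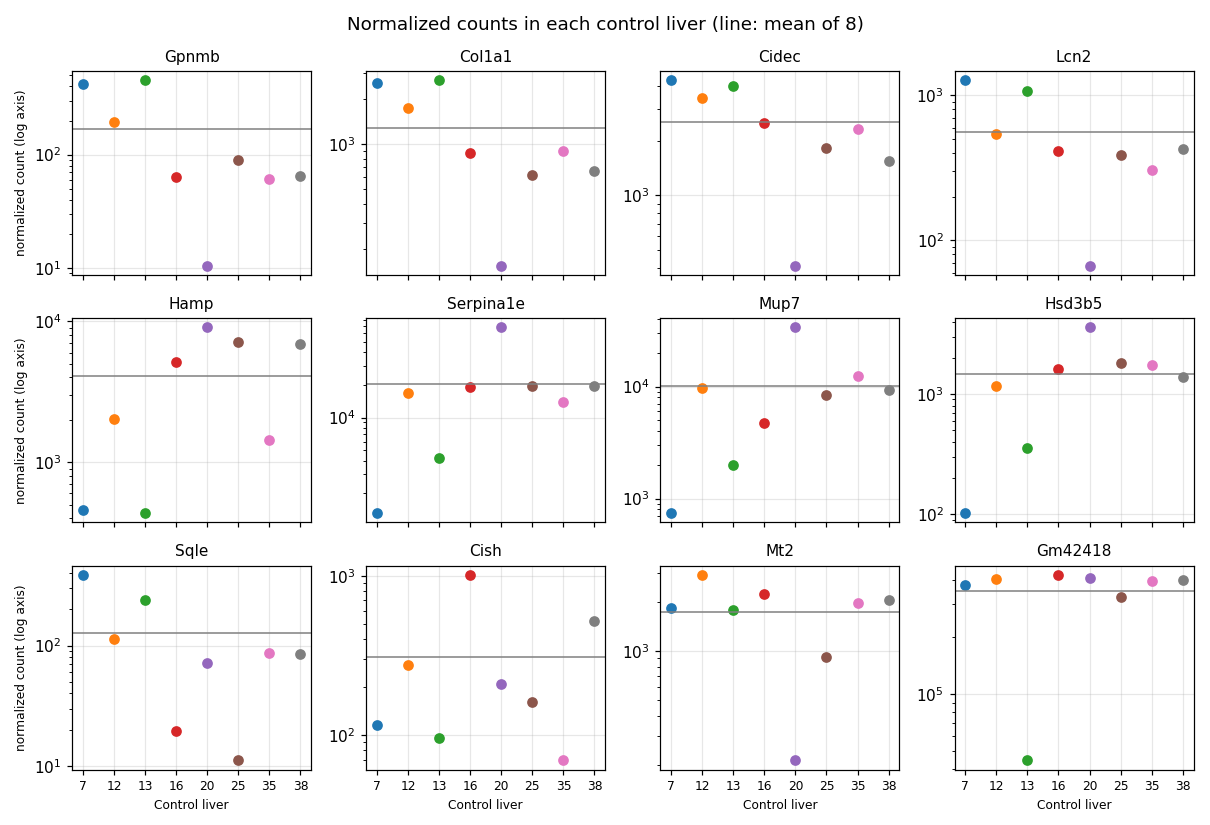
Normalized counts (log axis) of 12 genes in each control liver, 1 point per liver, with a line at the mean of 8. The genes were chosen after their values were seen. The upper row is lowest in Control 20, and Hamp, Serpina1e, Mup7 and Hsd3b5 are lowest in Control 7 or 13.

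Cish, Foxq1 and Gadd45g formed a block of their own, with r from 0.51 to 0.90 over its 3 pairs. With genes of the first block their r ran from -0.59 to 0.85 (median -0.15). Cish stood at 116 in Control 7, 273 in Control 12, 95.4 in Control 13, 1013 in Control 16, 209 in Control 20, 161 in Control 25, 69.1 in Control 35 and 521 in Control 38, with Control 16 and 38 far above the rest. Foxq1, a forkhead transcription factor, reached 583 and 412 in the same livers and at most 124 elsewhere. For this pair the test gave r = 0.90, exact permutation p = 0.00322, adjusted p = 0.0208, Spearman rho = 0.74 with p = 0.0458, and r = 0.48 without Control 16 and 38, so the relation rests on those livers. Gadd45g, a stress-induced gene, ran from 39.7 in Control 20 to 676 in Control 16 (median 214). Myc and Phlda1, which lay outside the 40, were also highest in Control 16 and 38, with 626 and 599 for Myc and 2937 and 2571 for Phlda1.

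Gm42418 and Rn18s-rs5 overlap each other on opposite strands of chromosome 17 at a locus related to ribosomal RNA, and since the strand setting of the counting is not given, their values are uncertain. Rn18s-rs5 stood at 46.3 in Control 13 and between 442 and 723 in the others. Its SD of 1.29 fell to 0.31 without Control 13. The pair's r of 0.98 had an adjusted p of 0.107 by the exact permutation test and an r of 0.29 without Control 13 and 38. Gm15564, which overlaps Kpna1 and Parp9, ran from 81.9 in Control 13 to 573 in Control 7 (median 329).

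Sqle, the squalene epoxidase of cholesterol synthesis, stood at 387 in Control 7, 114 in Control 12, 237 in Control 13, 19.7 in Control 16, 72.2 in Control 20, 11.1 in Control 25, 86.4 in Control 35 and 84.5 in Control 38, an SD of 1.66. Control 7 and 13 were the highest and Control 25 and 16 the lowest, while Control 20 lay near the middle. Cyp2c69, a cytochrome P450 with close paralogs, was joined to it at an r of 0.65 and ran from 14.1 in Control 25 to 486 in Control 20 (median 155). Ugt2b38, a glucuronosyltransferase whose reads may be shared with its family, ran from 21.5 in Control 7 to 208 in Control 12 (median 109). The pseudogene Gm1821 had the largest SD of all, 2.89, and stood at 9.99 in Control 7, 275 in Control 12, 6.75 in Control 13, 2.68 in Control 16, 138 in Control 20, 919.7 in Control 25, 7.27 in Control 35 and 16.9 in Control 38. Control 25, 12 and 20 were high and the other 5 low, and its mean of 172 passed the limit of 100 through those livers.

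Pathway lists were read against 5.40% of genes called by edgeR and a median SD of 0.147. Some of their members are among the 40 genes, which were chosen for spread and are all edgeR calls. The cholesterol list held 1 of the 40, acute phase proteins 3, redox genes 2 and xenobiotic metabolism 1. Of the lists described above, major urinary proteins and sex-biased liver genes held 10 and recruited and lipid-associated macrophages 3. The stellate cell and fibrosis list held 2 and the Kupffer cell list 1. Of cholesterol synthesis and uptake 11 of 24 members passed, with a median SD of 0.33 and a median r of 0.65. Fdps, a farnesyl diphosphate synthase, ran from 80.4 in Control 16 to 357 in Control 7 (median 208). Of fatty acid synthesis 8 of 20 passed, with Acly, which makes cytosolic acetyl-CoA, at 13230.3 in Control 20 and at most 5276 elsewhere. Fasn and Acaca, the enzymes of palmitate and malonyl-CoA synthesis, gave r = 0.96, exact permutation p = 0.000744, adjusted p = 0.0109, Spearman rho = 0.90 with p = 0.00456, and r = 0.96 without Control 20 and 38.

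Of fatty acid oxidation and ketone synthesis 9 of 25 members passed, with a median SD of 0.20. Cyp4a14, a fatty acid hydroxylase and PPAR alpha target, ran from 3007 in Control 20 to 14293 in Control 7 (median 8334), and Pdk4, which restrains glucose oxidation, from 169 in Control 25 to 729 in Control 13 (median 468). Of bile acid synthesis and transport 7 of 25 passed. Cyp7a1, which controls the rate of bile acid synthesis from cholesterol, ran from 2148 in Control 13 to 5642 in Control 25 (median 3281), and the uptake transporter Slco1a1 from 1496 in Control 7 to 7031 in Control 20 (median 4436). Abcg5 and Abcg8, which export sterols as a dimer, gave r = 0.995, exact permutation p = 7.44e-05, adjusted p = 0.0035, Spearman rho = 0.98 with p = 0.000397, and r = 0.99 without Control 13 and 20. Both were highest in Control 20, at 7837 and 11090.1.

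Acute phase proteins split in direction. Of this list 8 of 23 passed, and its median r was 0.01. Saa1, a serum amyloid whose reads may be shared with Saa2, gave the following with Lcn2: r = 0.99, exact permutation p = 9.92e-05, adjusted p = 0.0035, Spearman rho = 0.98 with p = 0.000397, and r = 0.96 without Control 7 and 20. With Hamp it gave r = -0.82, exact permutation p = 0.00558, adjusted p = 0.0446, Spearman rho = -0.81 with p = 0.0218, and r = -0.79 without Control 7 and 20. With Fgg, a fibrinogen chain, it gave r = -0.92, exact permutation p = 0.00114, adjusted p = 0.0139, Spearman rho = -0.93 with p = 0.00223, and r = -0.82 without Control 7 and 20. Apoa4, an apolipoprotein of the plasma protein list, ran from 16171 in Control 20 to 127266 in Control 13 (median 50260.5).

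Redox genes passed in 10 of 16 cases, with a median SD of 0.43. Gstm1 and Nqo1, detoxifying enzymes known as NRF2 targets, gave r = 0.95, exact permutation p = 0.000248, adjusted p = 0.00602, Spearman rho = 0.95 with p = 0.00114, and r = 0.88 without Control 7 and 13. Of xenobiotic metabolism by CAR and PXR 8 of 19 passed, and Cyp2c54 ran from 1603 in Control 7 to 6858 in Control 20 (median 4581). Of amino acid breakdown and the urea cycle 7 of 27 passed, with a median r of 0.64, or 0.38 after scaling to equal totals and 0.32 after quantile normalization. Cps1, the first enzyme of the urea cycle, ran from 25446 in Control 7 to 78974 in Control 20 (median 46693), and Got1, an aspartate aminotransferase, from 1924 in Control 13 to 6725 in Control 20 (median 3669).

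Clock genes passed in 5 of 18 cases. Dbp, an output gene of the clock, ran from 1303 in Control 13 to 3173 in Control 25 (median 1843), and with the repressor Nr1d1 it gave r = 0.93, exact permutation p = 0.000868, adjusted p = 0.0118, Spearman rho = 0.93 with p = 0.00223, and r = 0.87 without Control 20 and 25. The labels do not give the time of day of collection. Of the unfolded protein list 11 of 24 passed, and the chaperones Hspa5 and Hyou1 gave r = 0.99, exact permutation p = 9.92e-05, adjusted p = 0.0035, Spearman rho = 0.95 with p = 0.00114, and r = 0.98 without Control 20 and 38. Of immediate early genes 9 of 20 passed, with Jun from 274 in Control 20 to 1602 in Control 7 (median 838). Heat shock genes passed in 3 of 13 cases, and the interferon list in 1 of 25, a share near the background. Ribosomal proteins had a median SD of 0.11 and mitochondrially encoded genes 0.23, with median r of 0.60 and 0.84, the latter 0.25 after quantile normalization.

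Among the other cell types, the red blood cell list passed in 5 of 5 cases, and Hbb-bs, a globin chain, ran from 352 in Control 35 to 1799 in Control 25 (median 663). Its pair with Hba-a1 gave r = 0.97, exact permutation p = 0.000273, adjusted p = 0.00602, Spearman rho = 0.98 with p = 0.000397, and r = 0.94 without Control 25 and 35. The list's median r of 0.51 was 0.035 without Control 25. Sinusoidal endothelial markers passed in 1 of 13 cases, with Lyve1 from 287 in Control 20 to 889 in Control 13 (median 733). Cfd, an adipose-rich complement factor that liver can also express, ran from 869 in Control 13 to 4993 in Control 12 (median 2748), while the fat markers Adipoq and Retn were not among the genes analysed.

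Genes most like 6 reference genes were looked for among the 9599 others with a mean of at least 100. No partner of Saa1, Sqle, Dbp, Cidea, Lyz2 or Mup20 passed the exact permutation test (0 of 9599 each, 0%), adjusted over all 6 searches. The smallest adjusted p was 0.0952. Pairings of these livers can give no p under 2.48e-05. At that p no partner could pass alone after adjustment over so many tests. The 0 therefore cannot be read as a lack of related genes. Unadjusted p under 0.05 was found for 2495 partners of Saa1, 1689 of Cidea, 904 of Lyz2, 866 of Sqle, 647 of Mup20 and 532 of Dbp. As a description, Saa1 was most like Saa2 (r = 0.99), Plscr4 (r = 0.99) and Lcn2 (r = 0.99). Cidea was most like Tmem64 (r = 0.96), Sqle most like Aldoc (r = 0.97) and Lyz2, the macrophage lysozyme, most like Adgre1 (r = 0.94). Without the 2 livers farthest from the median of the reference gene, r was 0.79 for Tmem64 and 0.94 for Aldoc. For Adgre1 it fell to 0.41 without Control 7 and 13. Dbp was most like Fn3krp (r = 0.96) and Mup20 most like Noc4l (r = 0.95).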

How the data were processed

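Messenger RNA of 8 control livers was read from the deposited table of 12618 genes. Its values are a signal, normalized counts that the authors deposited, and the submitters' processing notes name DESeq2, featureCounts, STAR 2.7.11a and Trim Galore 0.6.10 with the build mm10, with no role or order. Not given in the sources used here are the annotation release, strand setting and gene filter, so overlapping and antisense genes are uncertain. Libraries were KAPA HyperPrep mRNA libraries of frozen liver, per the labels' protocols.

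Values were whole multiples of 1 read for 99.960% to 99.992% of genes per library, within 0.05 reads, which gave the recovered reads. Symbols turned into dates, 19 in all, were repaired, and 12599 gene identifiers matched GENCODE M21, whose coordinates and exon lengths are used. Promoter windows are from RefSeq on GRCm38.p6, and 2 motif sets were searched, the STAT letters and TGCACNC or TGCGCNC, the metal response letters.

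Spread is the SD of log2(value + 1). The test was limma 3.58.1 in R 4.3.3, on variance against a robust trended prior. It called 0 genes, and edgeR 4.0.16, listed as an alternative, is used for counts over lists. That use was decided after seeing the 0 and that limma also recovered none of the more variable genes on simulated data. There edgeR recovered 82% of genes with 4 times the usual spread and 11% with 2 times, and also called 3.80% with none added. Correlations are Pearson r with a two-sided exact permutation p and Benjamini-Hochberg adjustment at 0.05. The pair test was tested on simulated data too, where it recovered a minority of planted pairs. Alternatives were a pseudocount of 8, other minimum means (none, 500), equal totals, quantile normalization, an ordinary prior, Spearman's rho and leaving out each liver.

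The members and lists were chosen with earlier results of these data known. Named genes are the 25 most abundant, the 40 with the largest SD at a mean of 100 or more with the 2 just outside, up to 4 members of each list by SD with its reference gene and 2 closest pairs, the extreme pairs, and the genes most like 6 reference genes. Gstm1 replaced Gsta1, whose mean was under 100, as a reference. Other genes named, among them some list pairs, were chosen after their values were seen. Some genes that the rule names are not reported here.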

Additional observations from a re-analysis of the deposited data

Results flagged for a closer look

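Single livers lay far from the other 7 for 16 of 166 named genes, by the gap to the nearest other liver divided by the whole range (Dixon's ratio, at its 95% limit for 8 samples), computed on log2(normalized count + 1). Chance flags about 1 in 20 groups, but apart from the most abundant ones the named genes were chosen for a large SD in these livers and many vary together, so the 16 cannot be read against that share. The values given are normalized counts, the single liver first and the range of the other 7 after it.

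Control 20 was low for Cidec (410.0 in Control 20 against 1551 to 4328), Aebp1 (20.9 in Control 20 against 98.3 to 211), Mt2 (213 in Control 20 against 922 to 2918), Cgref1 (15.7 in Control 20 against 81.9 to 334) and Vwf (303 in Control 20 against 402 to 486). It was high for Acly (13230.3 in Control 20 against 2781 to 5276) and for the protease inhibitor Pzp (134409.6 in Control 20 against 92954 to 110621). Control 13 was low for Gm42418 (44495 in Control 13 against 326390.4 to 428616), Rn18s-rs5 (46.3 in Control 13 against 442 to 723) and mt-Nd6 (4169 in Control 13 against 6686 to 8186), and high for Adgre1 (1047 in Control 13 against 359 to 582). Control 7 was low for Serpina3k (93951 in Control 7 against 171254 to 219075) and the clock repressor Nfil3 (221 in Control 7 against 392 to 585), and high for the immunoglobulin genes Ighm (655 in Control 7 against 142 to 281) and Igkc (198 in Control 7 against 71.3 to 115). Control 25 was low for Sox9, a cholangiocyte factor (87.9 in Control 25 against 146 to 223).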

How the results depend on the processing

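The limma count of 0 was 2 without Control 20 and 682 by edgeR; over leaving out each liver it lay between 0 and 2. The count of genes with an SD of at least 1, 40, became 89 with no minimum mean and 15 with a minimum of 500, and lay between 25 and 52 over leaving out each liver, lowest without Control 20. The median SD was 0.157 with equal totals, 0.174 with no minimum mean and 0.128 with a minimum of 500, and between 0.141 and 0.150 over leaving out each liver. Passing pairs among the 40 genes were 115 by Spearman's rho, between 0 and 250 over leaving out each liver, and 8 with the same 40 genes without Control 20, an alternative chosen after seeing the data. Passing list pairs were 26 by Spearman's rho and between 23 and 41 over leaving out each liver. The cause of these shifts was not tested, although 7 livers also leave fewer pairings. List medians of r above that of all pairs numbered 31, and 23 with equal totals. Under quantile normalization Alb is the same in every liver, and its pairs were counted as an r of 0. No paired analysis was possible because only 1 group is used.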
